A study of Mus musculus with 2 samples.

Results

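The immediate early genes described here were Fos, Fosb, Jun, Junb, Egr1, Atf3, Ier2, Klf2, Zfp36 and Dusp1, 10 of the 32285 genes in the deposited count matrices. They were matched by gene symbol, and all 10 were present. Their UMIs were read in single cells from the retinal pigment epithelium (RPE) layer of mice that had received PBS or doxorubicin (Dox), with RPE cells kept apart from the other cells of the layer. An RPE cell was a cell with at least 10 UMIs of Rpe65, the isomerase of the visual cycle.

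Both groups were C57BL/6J mice of 3 months of age. The control group received 1 µl of PBS under the retina, and the Dox group received 1 µl of Dox at 100 ng/µl, a topoisomerase II poison that damages DNA. Cells were collected 7 days later. The authors state that Dox given under the retina reached only a part of the RPE. The RPE cells of the Dox library could not be divided by exposure, so its values are for exposed and unexposed cells together. Each group was 1 library, pooled from 10 eyes of 5 mice, so there was no replicate, and no difference between the libraries could be tested. All intervals below are exact 95% intervals and cover counting error only. In both groups the complex of RPE, choroid and sclera was digested warm with papain and triturated, dead cells were removed, and the cells were captured with a 5′ single-cell kit. No undissociated sample was analysed here, so an effect of dissociation common to both libraries could not be separated from the level in the living eye.

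The control library held 20180 cells after the filters and the Dox library held 15426, with medians of 4495 and 4995 UMIs per cell. There were 1526 RPE cells in the control library and 1630 in the Dox library, with medians of 16014 and 18116 UMIs. The libraries shared 441 cell barcodes. RPE markers other than Rpe65, which the gate used, summed to 91861 CPM (UMIs of a gene or list per 1000000 UMIs of the cell group) in control RPE cells and 93011 CPM in Dox RPE cells, against 2994 and 4696 CPM in the most numerous fibroblast-like cells. The gated cells were not uniform, and 382 control and 281 Dox cells among them were led by fibroblast genes (the Mgp-led cells described below). Doublets were scored with Scrublet. Its own threshold called 9.62% of control cells and 0 of the Dox cells, so it had not worked in the Dox library, and cells with the highest scores, up to the rate expected from the cell number, were left out only where stated. That rate was 16.1% in the control and 12.3% in the Dox library, with scores ranked within each library.

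Immediate early genes are transcribed within minutes of a stimulus from transcription factors that are already in the cell, with no need for new protein. SRF bound at CArG boxes and CREB bound at cyclic AMP response elements (CRE) are the classical relays from MAP kinase, calcium and cyclic AMP signals, and the products are in part transcription factors that act on later genes and in part brakes on the response. The same genes are known to be induced when tissue is digested with enzymes at warm temperature, and several of them also answer to DNA damage.

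The promoters of the members were read to show which of these elements lie beside the start sites. RefSeq promoter windows on GRCm38.p6 were matched for 8 of the 10 members, and Egr1 and Ier2 were not searched. The 250 bases before each start site were searched on both strands. The 4 windows below are shown because Fos is the archetype of the class, Atf3 had the largest ratio between the libraries in RPE cells, and, of the 8 windows searched, that of Zfp36 alone held a CArG box and that of Dusp1 alone a full CRE. They lie at chr12:85473640-85473889, plus strand (Fos), chr1:191183334-191183583, minus strand (Atf3), chr7:28379229-28379478, minus strand (Zfp36) and chr17:26508473-26508722, minus strand (Dusp1). Capitals mark the letters TGACG on either strand, which are the core of a CRE and lie within the full CRE TGACGTCA, and in Zfp36 the CArG box.
Fos: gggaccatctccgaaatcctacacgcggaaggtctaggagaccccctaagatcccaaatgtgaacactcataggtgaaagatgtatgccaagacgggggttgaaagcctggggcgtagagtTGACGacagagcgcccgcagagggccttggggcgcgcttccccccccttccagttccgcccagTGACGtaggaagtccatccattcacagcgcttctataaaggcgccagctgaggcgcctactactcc
Atf3: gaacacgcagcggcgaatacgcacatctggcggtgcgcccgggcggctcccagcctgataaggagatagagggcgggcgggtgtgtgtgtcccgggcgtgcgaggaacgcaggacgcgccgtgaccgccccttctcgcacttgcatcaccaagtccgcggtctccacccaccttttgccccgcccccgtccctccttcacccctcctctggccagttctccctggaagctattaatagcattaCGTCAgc
Zfp36: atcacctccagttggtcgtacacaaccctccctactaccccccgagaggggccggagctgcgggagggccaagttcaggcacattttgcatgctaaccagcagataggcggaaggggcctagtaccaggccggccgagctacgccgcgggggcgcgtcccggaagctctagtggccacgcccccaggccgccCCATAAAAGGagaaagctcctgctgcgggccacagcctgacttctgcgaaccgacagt
Dusp1: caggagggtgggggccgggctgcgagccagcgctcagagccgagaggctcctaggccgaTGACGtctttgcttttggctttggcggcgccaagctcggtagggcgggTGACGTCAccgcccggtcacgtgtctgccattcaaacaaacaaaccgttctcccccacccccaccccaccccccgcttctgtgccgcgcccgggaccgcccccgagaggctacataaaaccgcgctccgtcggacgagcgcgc
The core letters TGACG were in 6 of the 8 windows, and in 17.8% of the 32851 windows of the table. The full CRE TGACGTCA was in 1 of the 8, Dusp1, at positions -143 to -136 from the start, and in 1.55% of all windows. The CArG box was in 1 of the 8, Zfp36, at -58 to -49, and in 1.47% of all windows. The AP-1 site TGACTCA was in none of the 8 and in 4.46% of all windows, the GC box GGGCGG was in 7 of the 8 and in 32.7%, and the TATA box TATAAA was in 1 of the 8, Fos, and in 12.4%. These are matches of letters only. Sequence beyond these 250 bases was not searched, so an element of a member may lie outside its window. The RefSeq start sites of Atf3, Zfp36 and Dusp1 lie inside the gene spans given below, so these windows are not at the outermost annotated start.

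Across the layer, the members were lowest by CPM in RPE cells and highest in Schwann-like, Cxcl10-led and fibroblast-like cells. Cells were grouped by clustering without the listed genes and were named from markers, or by their leading gene where the markers gave no name. In the control library the 10 members summed to 5070 CPM (interval 5043 to 5097) in RPE cells and to 48361 CPM in the Myoc-led fibroblast-like cells, the most numerous cells of the layer, which is 0.507% and 4.84% of all UMIs. In the Dox library the sums were 4212 CPM (4189 to 4235) and 50061 CPM. The fibroblast-like level was therefore 9.54 times the RPE level in the control library and 11.9 times in the Dox library. RPE cells ranked 12th of 12 groups by CPM for each of the 10 members in both libraries. This is an order of shares of UMIs, not of UMIs per cell. RPE cells were deeper, with a median of 16014 UMIs in the control library against 4756 in Myoc-led fibroblast-like cells.

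The order of the groups by summed CPM in the control library was Schwann-like (54953), Cxcl10-led (54376), Myoc-led fibroblast-like (48361), endothelial-like (42250), Snhg7os-led (35560), smooth muscle-like (32274), Sfrp4-led fibroblast-like (24550), macrophage or antigen-presenting cell-like (20433), NK or T cell-like (20242), melanocyte-like (19777), the cells of the RPE-like cluster under the Rpe65 gate (11259) and RPE cells (5070). The intervals of Schwann-like and Cxcl10-led cells overlapped, as did those of macrophage-like and NK or T cell-like cells, and all other neighbours were apart by more than counting error. In the Dox library the first 6 places and the last 3 were held by the same groups, no neighbours overlapped, and the Sfrp4-led cells moved from 7th to 9th place with 15682 CPM.

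**Figure D1:**
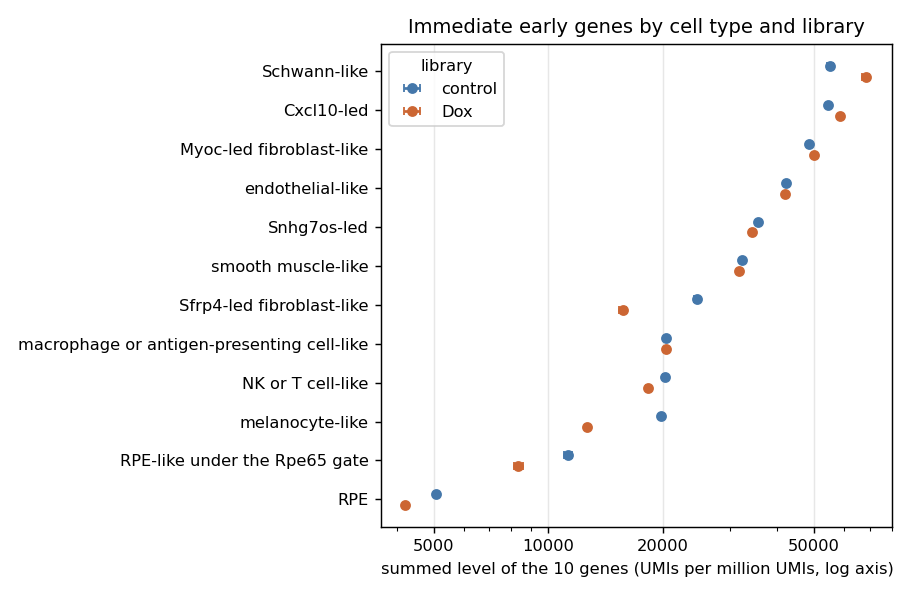
Summed level of the 10 immediate early genes in CPM (log axis) for each cell group, with 1 point per library and bars for the exact 95% counting interval. RPE cells lie lowest in both libraries, at 5070 CPM (control) and 4212 CPM (Dox), and Schwann-like cells highest, at 54953 and 68222 CPM.

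The members differed in where they were highest. Fos led in Schwann-like cells with 19638 CPM in the control library and 24362 CPM in the Dox library. Klf2, the flow-responsive factor of endothelium, led in endothelial-like cells with 3101 and 3737 CPM. Atf3 was also high there, with 3489 and 3878 CPM. Junb, Egr1 and Zfp36 led in the Cxcl10-led cells, where Zfp36 stood at 9579 and 10114 CPM and Egr1 at 6051 and 6373 CPM. Fosb led in the Snhg7os-led cells, whose leading genes include the long noncoding RNAs Snhg7os and Neat1, with 1347 and 1433 CPM.

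In RPE cells, 9 of the 10 members were lower in the Dox library, while Jun was 0.04 higher on the log2 scale. The median log2 ratio of all 10 was -0.32. By size, 1 of the 10, Atf3, was past 1.5-fold lower, and none was past 1.5-fold higher. Of the 12774 genes with at least 50 UMIs in RPE cells, 4.92% were past 1.5-fold lower and 1.66% higher, and 53.3% lay below 0, with a median log2 ratio of -0.01. The summed members stood at 5070 CPM in the control library and 4212 CPM in the Dox library, a log2 ratio of -0.27 (interval -0.28 to -0.26). Fibroblast markers were lower in the same cells, with 1305 CPM in the control and 769 CPM in the Dox library, a log2 ratio of -0.76, and all 10 markers with at least 50 UMIs lay below 0. Their part in the members' ratio was not tested beyond the alternatives. The ratio of the summed members depended on which Rpe65-positive cells were counted. With a gate of 5 Rpe65 UMIs it was 0.066, with a gate of 20 it was -0.40, without the cells of highest doublet score it was -0.13, and with the subclusters described below weighted alike in both libraries it was 0.10.

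AP-1 is a dimer of Fos, Jun and Atf family proteins. Fos (chr12:85473890-85477273), the prototype partner of Jun, stood at 1352 CPM in the control and at 1189 CPM in the Dox RPE cells, a log2 ratio of -0.19. Fosb (chr7:19302696-19310051), its close relative, stood at 97.8 and 91.2 CPM, a log2 ratio of -0.10. Jun (chr4:95049034-95052222), which is activated by JNK, stood at 654 and 672 CPM, a log2 ratio of 0.04. These were the members of AP-1 with the smallest differences between the libraries. Junb (chr8:84974484-84978718), a weaker activator that can oppose Jun, stood at 999.7 and 738 CPM, a log2 ratio of -0.44. Atf3 (chr1:191170296-191218039), a stress-induced factor that mostly represses, stood at 176 and 109 CPM, a log2 ratio of -0.69 (interval -0.76 to -0.63), the largest of the 10. Atf3 was lower in the Dox library under all 14 alternative settings, with a log2 ratio between -0.91 and -0.19. Of the 14, 1 had no minimum of UMIs per gene and could not change a member's ratio. Fos turned direction in 3 of them, Fosb in 4, Jun in 2 and Junb in 1.

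The other members encode zinc finger factors, a nuclear regulator and brakes. Egr1, a zinc finger factor downstream of ERK and SRF, stood at 551 CPM in the control and at 488 CPM in the Dox RPE cells, a log2 ratio of -0.17. Klf2 (chr8:72319033-72321656) stood at 179 and 127 CPM, a log2 ratio of -0.50. Ier2 (chr8:84661331-84662852), a small nuclear protein, stood at 204 and 149 CPM, a log2 ratio of -0.45, and was lower under all 14 alternative settings. Egr1 turned direction in 5 of the 14 settings and Klf2 in 2. The remaining 2 genes act as brakes. Zfp36 (chr7:28376784-28380253), which encodes tristetraprolin and promotes decay of AU-rich mRNAs, stood at 596 and 425 CPM, a log2 ratio of -0.49. Dusp1 (chr17:26505590-26562128), a phosphatase of p38 and JNK, stood at 259 and 225 CPM, a log2 ratio of -0.21. Zfp36 was above 0 in 2 of the 14 settings and Dusp1 in 5. Genes were placed on GRCm38 from the GENCODE vM21 annotation.

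**Figure D2:**
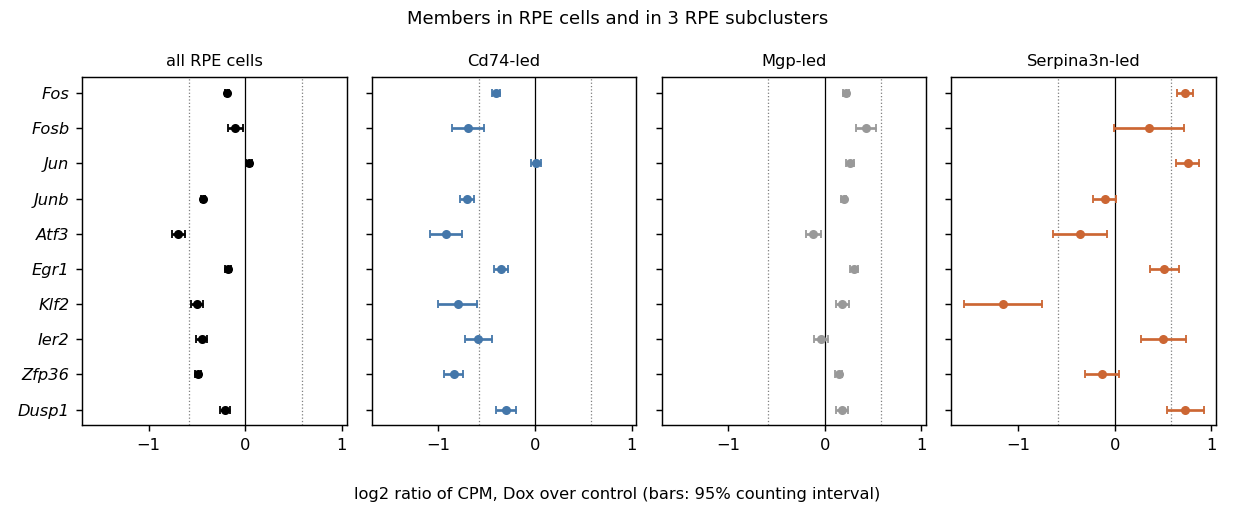
Log2 ratio of CPM, Dox over control, for each of the 10 genes in all RPE cells and in the Cd74-led, Mgp-led and Serpina3n-led subclusters, with exact 95% counting intervals and dotted lines at 1.5-fold. In the Cd74-led subcluster 9 of 10 genes lie below 0, against 51.6% of all genes counted there. In the Serpina3n-led subcluster Fos, Jun and Dusp1 lie past 1.5-fold above 0.

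The members were unevenly spread over RPE cells. The 10% of RPE cells with the most member UMIs held 43.2% of them in the control library and 47.6% in the Dox library. The level was lower in cells with more Rpe65 UMIs. Cells with 10 to 19 Rpe65 UMIs had 17191 CPM of members in the control library and 18348 CPM in the Dox library, and cells with 100 or more had 3109 and 2459 CPM. Just below the gate, at 5 to 9 Rpe65 UMIs, the level was 33222 and 39933 CPM. The summed fibroblast markers (Dcn, Lum, Col1a1 and 8 others) followed the same course, from 5675 and 3889 CPM at 10 to 19 Rpe65 UMIs to 623 and 398 CPM at 100 or more. Median depth differed over the same bins, from 5025 and 4840 UMIs to 24826 and 26824. The part of cells or RNA of other types in these levels was not tested.

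**Figure D3:**
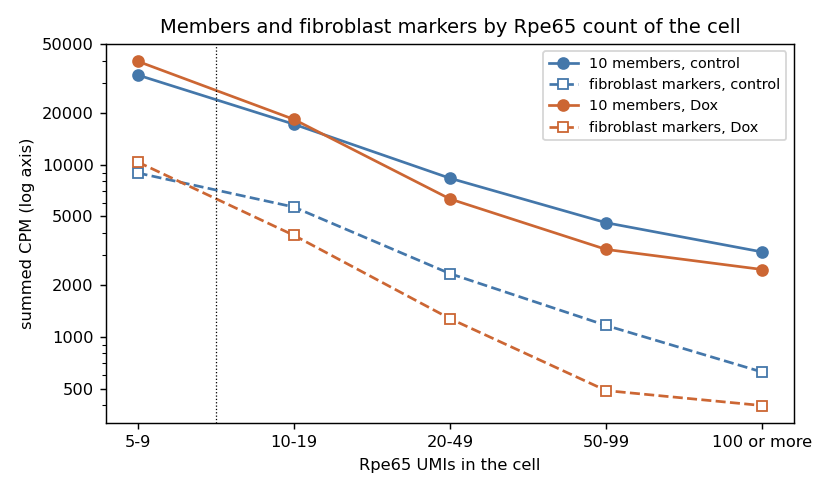
Summed CPM (log axis) of the 10 immediate early genes (filled circles) and of 11 fibroblast markers (open squares) in cells binned by their Rpe65 UMIs, for both libraries, with a dotted line at the gate. Both sums decline together from the lowest bin to the highest, to 3109 and 2459 CPM of members at 100 or more Rpe65 UMIs.

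Clustering of the RPE cells alone, again without the listed genes, gave 5 subclusters. They are called by their leading genes. The largest was led by Cd74 with Enpp2, Sfrp5 and Mt3 (884 control and 954 Dox cells). Its name is a label and does not mean that most of its cells carried Cd74. At the finer resolution of 0.2, Cd74 was a leading gene of a separate group with H2-Eb1, H2-Aa and C1qb (100 control and 67 Dox cells). The largest group at that resolution was led by Serpine3, Nrn1l and Ddc (533 and 566 cells). An Mgp-led subcluster was led by the fibroblast genes Apod, Dcn, Lum and Myoc (382 and 281 cells). A Gm26917-led subcluster carried nuclear noncoding RNAs (149 and 192 cells), a Serpina3n-led subcluster carried Gsta3, Timp1, C4b and Gpnmb (91 and 195 cells), and a Myh11-led subcluster of smooth muscle genes held 20 and 8 cells. The summed members stood at 14059 CPM in the control and at 16106 CPM in the Dox cells of the Mgp-led subcluster, but at 1873 and 1420 CPM in the Cd74-led subcluster. The Mgp-led cells thus held 67.9% of all member UMIs of control RPE cells and 59.9% of those of Dox RPE cells. Of the Mgp-led cells, 256 of 382 in the control library and 176 of 281 in the Dox library had doublet scores among those left out at the expected rate, against 29 of 884 and 4 of 954 Cd74-led cells.

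In the Cd74-led subcluster the members were lower in the Dox library by more than in RPE cells as a whole. The sum went from 1873 CPM (interval 1852 to 1895) to 1420 CPM (1403 to 1437), a log2 ratio of -0.40, and lay between -0.42 and -0.26 under the 8 alternative settings tried. Of the 10 members, 6 were past 1.5-fold lower and none was higher, against 3.13% lower and 0.852% higher among the 11389 genes counted there. Atf3 stood at 47.7 and 25.2 CPM, a log2 ratio of -0.92. Zfp36 stood at 135 and 75.2 CPM, a log2 ratio of -0.84. Klf2 stood at 30.3 and 17.4 CPM, a log2 ratio of -0.80. Junb, Fosb and Ier2 followed with log2 ratios of -0.71, -0.70 and -0.59. Ier2 was the nearest of the 6 to the limit. Fos (684 and 516 CPM, log2 ratio -0.41), Egr1 (-0.36) and Dusp1 (-0.30) were lower but did not reach 1.5-fold. Jun stood at 329 and 332 CPM, a log2 ratio of 0.01.

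Fibroblast markers were lower in the same cells. Their sum went from 144 CPM in control to 89.4 CPM in Dox cells of the Cd74-led subcluster, a log2 ratio of -0.68 (interval -0.78 to -0.59), and all 9 markers with at least 50 UMIs were below 0, by a median of 0.72. Macrophage markers, a list that holds Cd74 itself, went from 549 to 240 CPM and smooth muscle markers from 222 to 194 CPM. To set the members beside these, each level was expressed as a share of the level in Myoc-led fibroblast-like cells of the same library. In control cells the 9 fibroblast markers lay between 0.685% and 1.30% of the fibroblast-like level. Klf2, at 1.27%, lay within that range. The other 9 members lay above it, from Zfp36 at 1.87%, Junb at 2.19%, Atf3 at 2.69% and Ier2 at 3.00% to Egr1 at 3.86%, Dusp1 at 3.91%, Fos at 6.26%, Jun at 6.70% and Fosb at 8.14%. The 4 members with the lowest shares had log2 ratios between -0.92 and -0.71. Jun, Fos, Dusp1 and Egr1 had higher shares and log2 ratios between -0.41 and 0.01, and Fosb had the highest share with a log2 ratio of -0.70. With only the cells low in fibroblast marker UMIs (under 0.1% of the cell's UMIs), the summed log2 ratio was -0.34. That limit lies above the subcluster's 144 and 89.4 CPM of these markers, so fibroblast RNA at such levels stayed in. The part of fibroblast RNA in the difference was not tested.

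**Figure D4:**
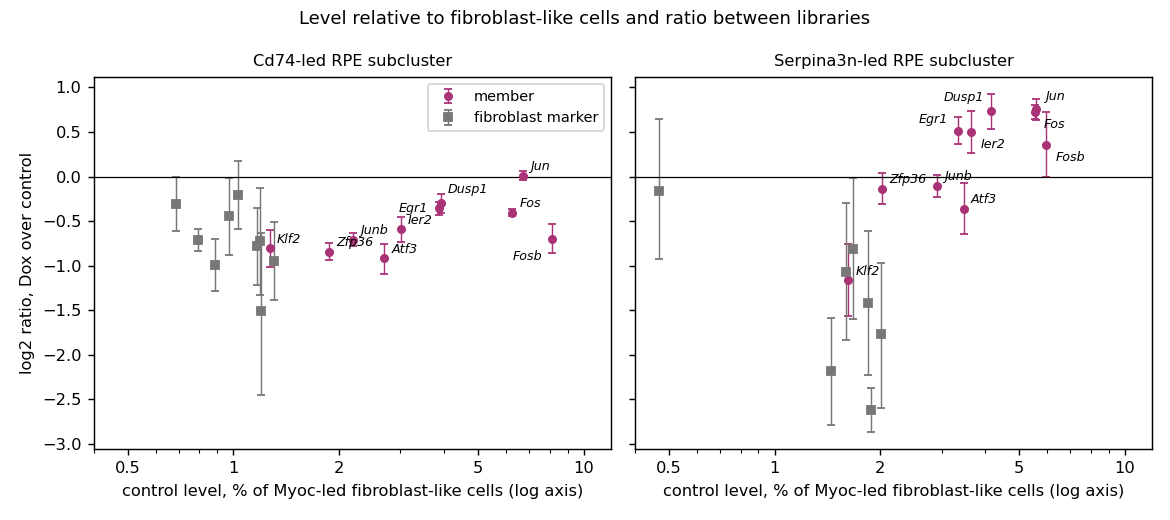
Log2 ratio of Dox over control (vertical axis, with exact 95% counting intervals) against the control level as a percent of that in Myoc-led fibroblast-like cells (log axis), for members (circles) and fibroblast markers with at least 50 UMIs (squares) in the Cd74-led and Serpina3n-led RPE subclusters. In both panels Klf2 lies among the fibroblast markers, and Jun lies to the right, at 0.01 in the Cd74-led and 0.76 in the Serpina3n-led subcluster.

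In the Serpina3n-led subcluster the sum of the members differed in the opposite direction, with 6 members above 0 and 4 below. Their sum was 1827 CPM (interval 1776 to 1879) in control and 2530 CPM (2490 to 2570) in Dox cells, a log2 ratio of 0.47, and it lay between 0.47 and 0.66 under the 8 alternative settings tried. By size, 3 of the 10 members were past 1.5-fold higher and 1 lower, against 6.41% higher and 5.05% lower among 8462 genes. Of all 8462 genes, 52.4% lay below 0. Jun stood at 274 and 463 CPM, a log2 ratio of 0.76 (interval 0.64 to 0.88). Fos stood at 605 and 1002 CPM, a log2 ratio of 0.73. Dusp1 stood at 104 and 172 CPM, a log2 ratio of 0.73. Egr1 (182 and 261 CPM) and Ier2 (73.0 and 103 CPM) were higher by 0.52 and 0.50. Klf2 stood at 38.7 and 17.3 CPM, a log2 ratio of -1.16 (interval -1.57 to -0.75). Junb and Zfp36 had log2 ratios of -0.10 and -0.14, with intervals that reached 0. Atf3, with a log2 ratio of -0.36, was 0.062 in the cells low in fibroblast markers alone and 0.0048 after thinning of the cells to 5000 UMIs.

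The Serpina3n-led cells of the Dox library also carried more of the p53 targets, with 439 CPM in the control and 1337 CPM in the Dox cells, and of the interferon genes, with 540 and 2221 CPM. Their fibroblast markers went from 284 to 67.7 CPM, and 25 of the 91 control cells but none of the 195 Dox cells had doublet scores among those left out. Without those cells the log2 ratio of the summed members was 0.54. The cut lay at 16.1% of control and 12.3% of Dox cells, ranked within each library, so these counts do not compare doublet rates. Median depth was 29571 and 30762 UMIs. Clusters were made on both libraries together, so the control cells placed here need not be the same kind of cell as the Dox cells.

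In the Gm26917-led cells the sum was also higher in the Dox library, with 8 members above 0 and Junb (-0.36) and Klf2 (-0.18) below. Their sum was 5236 CPM in the control and 7426 CPM in the Dox cells, a log2 ratio of 0.50, and 3 members were past 1.5-fold higher, Jun by 1.11, Fosb by 0.81 and Egr1 by 0.68, with none lower. Melanocyte markers in the same cells went from 9954 to 3147 CPM and RPE markers from 57066 to 43490 CPM, and their part in the difference was not tested. The subcluster was unequal as a whole, with 13.1% of 6287 genes past 1.5-fold higher and 11.1% lower. Of all 6287 genes, 39.4% lay below 0, with a median log2 ratio of 0.13. Median depth of the subcluster was 4297 and 4887 UMIs. In the Mgp-led cells no member was past 1.5-fold either way, against 3.00% of 10387 genes higher and 1.63% lower, and the summed log2 ratio was 0.20.

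The share of RPE cells with a member's UMI was compared after thinning of the cells to 5000 UMIs, which left out 186 control and 202 Dox cells. Of the shallow Gm26917-led cells, 85 of 149 control and 98 of 192 Dox cells were left out. For the Cd74-led cells these numbers were 83 of 884 and 91 of 954. Fos was found in 78.2% of control and 76.3% of Dox RPE cells (92.1% and 92.5% unthinned), Jun in 68.5% and 67.5%, and their intervals overlapped. Atf3 was found in 34.1% (interval 31.6 to 36.7) and 24.9% (22.6 to 27.2), or 51.2% and 43.5% unthinned. Klf2 was found in 31.0% and 23.2%, and Zfp36 in 54.9% and 46.0%. The median RPE cell held UMIs of 5 members in the control library and of 4 in the Dox library. At least 8 members were found together in 28.4% and 20.1% of RPE cells, and none in 3.51% and 3.43%. In the Cd74-led subcluster 8 or more members were found in 5.62% and 1.16% of cells. In the Serpina3n-led subcluster these shares were 6.67% and 4.62%. They were higher in the Dox library in Mgp-led cells (81.6% and 89.2%), in Gm26917-led cells (26.6% and 37.2%) and in the few Myh11-led cells. In each of these subclusters and in the Serpina3n-led one, the intervals of the libraries overlapped. Mgp-led cells were 25.0% of control and 17.2% of Dox RPE cells before thinning. The part of this mix in the difference across RPE cells was not tested. In Myoc-led fibroblast-like cells thinned to 1000 UMIs, 8 or more members were found in 74.8% and 75.4% of cells, against 6.50% and 5.77% of RPE cells at that depth. No cell type of the layer is known to lack these genes, so no share was available as a background.

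The members moved together from cell to cell. Over thinned RPE cells (1340 control and 1428 Dox cells of 1 library each), the median Pearson correlation of the 45 pairs of members was 0.63 in both libraries. Junb and Zfp36 were the closest pair, with 0.84 and 0.83. Within the Cd74-led cells the median was 0.28 and 0.16. The summed members correlated across RPE cells with the fibroblast markers (0.71 control and 0.68 Dox) and with the RPE markers (-0.58 and -0.64). Within the Cd74-led cells these values were 0.20 and 0.11 for the fibroblast markers and -0.31 and -0.25 for the RPE markers. All these cells had been thinned to 5000 UMIs, so they had equal depth, and all had passed the Rpe65 gate. Across RPE cells the summed members correlated with depth before thinning at -0.18 in the control and -0.27 in the Dox library.

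Gene lists that respond to dissociation and gene lists that respond to DNA damage were set beside the members. Of all 12774 genes counted in RPE cells, 4.92% were past 1.5-fold lower and 1.66% higher. Of 38 other early response genes, 36 had at least 50 UMIs in RPE cells. Phlda1, Nr4a2 and Maff were past 1.5-fold lower, none was higher, and the median log2 ratio was -0.23. Phlda1 stood at 179 CPM in the control and at 105 CPM in the Dox RPE cells, and Nr4a2, an orphan nuclear receptor, at 63.0 and 40.6 CPM. Sgk1, the serum and glucocorticoid kinase and the gene of this list with the most UMIs, stood at 703 and 710 CPM. Of the 20 genes of feedback and upstream signalling, which include Srf, Creb1 and the MAP kinases, none was past 1.5-fold either way. Their median was -0.04. By subcluster, the other early response genes had a median of -0.30 in Cd74-led cells. It was 0.20 in Mgp-led, 0.29 in Gm26917-led, 0.10 in Serpina3n-led and 0.25 in the few Myh11-led cells. The medians of all genes counted in these 5 subclusters were -0.01, 0.05, 0.13, -0.02 and -0.01.

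Heat shock genes, which are induced by handling at warm temperature, differed little. Of 14 genes none was past 1.5-fold and the median log2 ratio was -0.05. With so few genes that count is near the share of all counted genes, 4.92% lower and 1.66% higher. Hspa8 stood at 1783 CPM in the control and at 1735 CPM in the Dox RPE cells and Hsp90aa1 at 1759 and 1679 CPM. Of 8 counted genes of the integrated stress response, Sesn2, which is also among the p53 targets, was past 1.5-fold higher and Nupr1 lower (30.7 and 12.7 CPM), and the median was -0.12. Ppp1r15a, the phosphatase subunit that ends that response, stood at 237 and 177 CPM. The median of the integrated stress genes was -0.19 in Cd74-led cells. It was 0.22 in Mgp-led, 0.36 in Gm26917-led, 0.20 in Serpina3n-led and 0.04 in Myh11-led cells.

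The p53 targets and interferon genes lay on the other side. Of all genes counted in RPE cells, 1.66% were past 1.5-fold higher and 4.92% lower. Of 17 counted p53 targets, 10 were past 1.5-fold higher and none was lower, with a median of 0.67. Cdkn1a, the inhibitor of cyclin-dependent kinases, stood at 47.7 and 113 CPM, and Gdf15, a secreted stress cytokine, at a log2 ratio of 1.27. Of 12 interferon genes, 9 were past 1.5-fold higher, with Bst2 at 233 and 473 CPM and a median of 0.98. Within the Cd74-led cells, where the summed members were lower in the Dox library, the p53 targets differed little. There 1 of 15 counted targets was past 1.5-fold higher, against 0.852% of genes, and the median was 0.06. The p53 target medians were 0.65 in Mgp-led, 0.91 in Gm26917-led and 1.35 in Serpina3n-led cells. Of 9 counted interferon genes, 8 were past 1.5-fold higher in Cd74-led cells, with a median of 0.96. These lists were chosen with results of these data known, so their counts are no independent evidence of direction.

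**Figure D5:**
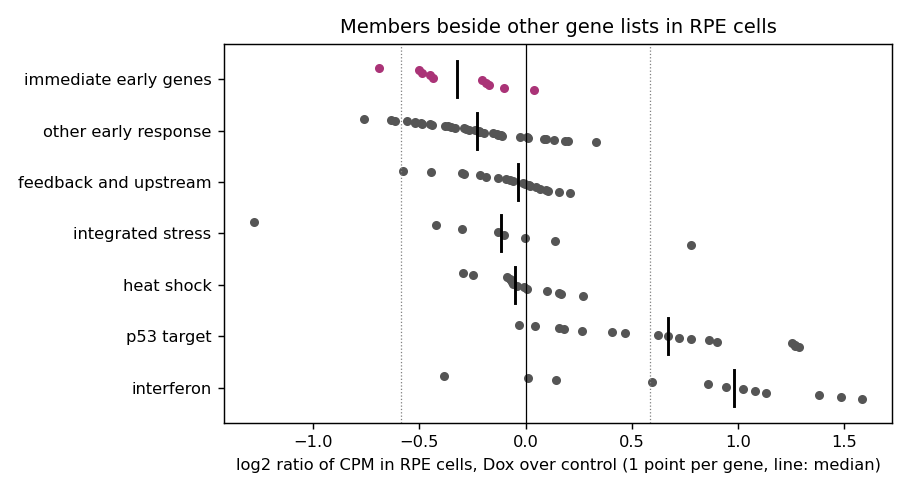
Log2 ratio of CPM in RPE cells, Dox over control, with 1 point per gene with at least 50 UMIs, a line at each list's median and dotted lines at 1.5-fold. All RPE subclusters are pooled here, and the medians of the lists differed between them. The immediate early genes have a median of -0.32 and the other early response genes of -0.23, the heat shock genes of -0.05, the p53 targets of 0.67 and the interferon genes of 0.98.

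Cell by cell, among the 6 response lists the summed members followed the other early response genes most closely, with correlations of 0.81 in control and 0.82 in Dox RPE cells, then the integrated stress genes with 0.69 in both. The genes of feedback and upstream signalling gave 0.41 and 0.48. The correlation with the p53 targets was 0.28 and 0.33, that with the heat shock genes 0.19 in both and that with the interferon genes 0.20 and 0.05. All were lower within the Cd74-led cells, except interferon in the Dox library. There the other early response genes gave 0.46 and 0.49 and the integrated stress genes 0.35 and 0.28. The p53 targets gave 0.14 and 0.11 and the heat shock genes 0.11 and 0.14. In the other subclusters the p53 targets gave 0.36 and 0.27 (Mgp-led), 0.15 and 0.23 (Serpina3n-led) and 0.04 and 0.49 (Gm26917-led). The Gm26917-led values rest on 64 control and 94 Dox cells. In the control library, whose mice received PBS and no Dox, the members stood at 5070 CPM in RPE cells. Both groups were digested by the same protocol, but each was 1 library. A response to dissociation that differed between the libraries therefore cannot be told apart from an effect of Dox.

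In the other cells the libraries differed little for most types. The summed log2 ratio lay between -0.15 and 0.11 in 7 of the 10 types that are not RPE-like. The cells of the RPE-like cluster under the Rpe65 gate (100 and 90 cells) had 11259 CPM in the control and 8336 CPM in the Dox library, a log2 ratio of -0.43, with Atf3 (-1.22), Junb, Zfp36 and Ier2 past 1.5-fold lower against 10.1% of genes lower. In the 7 types, no member was past 1.5-fold either way, against 4.59% of genes in Myoc-led fibroblast-like, 3.87% in Cxcl10-led, 9.57% in endothelial-like, 7.16% in smooth muscle-like, 8.88% in macrophage or antigen-presenting cell-like, 9.69% in NK or T cell-like and 13.4% in Snhg7os-led cells. In melanocyte-like cells the sum went from 19777 CPM in control to 12665 CPM in Dox cells, a log2 ratio of -0.64, with 5 members past 1.5-fold lower against 8.47% of genes lower. RPE markers in those cells went from 8954 to 28019 CPM and melanocyte markers from 35866 to 24870 CPM, with medians of 1245 and 766 UMIs per cell, and the part of RPE RNA in the difference was not tested. In Sfrp4-led fibroblast-like cells (113 and 71 cells) the sum went from 24550 to 15682 CPM, a log2 ratio of -0.65, with 5 members past 1.5-fold lower against 6.62% of genes lower. That ratio was -0.49 as a mean of the cells' own CPM and -0.54 after thinning, neither of them past 1.5-fold. Clustered without integration of the libraries, the group led by Sfrp4 was a larger set of shallower cells. It held 398 control and 267 Dox cells, any RPE cells included, with medians of 2571.5 and 2463 UMIs, and its ratio was -0.12. In the 113 and 71 cells of the main grouping, Zfp36 had the largest ratio, at 2569 and 1244 CPM. In the 61 and 32 Schwann-like cells the sum was higher in the Dox library, with a log2 ratio of 0.31, and Atf3, a marker of injured Schwann cells and neurons, was past 1.5-fold higher at 2349 and 4649 CPM, against 7.62% of genes higher. Schwann markers in these cells went from 6444 to 18642 CPM, melanocyte markers from 4231 to 1026 CPM and fibroblast markers from 3207 to 1588 CPM, and the part of this make-up in the difference was not tested.

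Among the genes outside the lists that were most like the members across the 24 groups of cell type and library were Nrp1, Sertad1, Tle1 and Sema4c, with Pearson correlations of log2(CPM + 1) between 0.92 and 0.94 among 6798 genes compared. Single members correlated with the mean of the members at 0.90 (Fosb) to 0.98 (Zfp36). Each member is itself part of that mean, so its value is not comparable with those of genes outside the lists.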

How the data were processed

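Single-cell RNA-seq was measured in 1 control and 1 Dox library. The authors deposited filtered matrices of UMI counts per gene and cell, made with Cell Ranger 4.0.0 on mm10 per the file headers and the submitters' processing notes, and these counts were used as deposited. The 10 members and all gene lists were chosen with earlier results of these data known.

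Cells with at least 500 UMIs, 200 to 6000 genes, a complexity of at least 0.8 and at most 20% mitochondrial UMIs were kept. Cells were clustered in R 4.3.3 with Seurat 5.3.0 and sctransform 0.4.2 on 40 principal components after integration of the libraries, at resolution 0.1 for all cells and 0.05 for RPE cells, with the listed genes left out of the features. Clusters were named from marker lists. Likely doublets, from Scrublet scores (scanpy 1.11.5), were left out only in an alternative.

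UMIs were summed per cell group and library and given as CPM with exact Poisson intervals. Ratios had exact conditional binomial intervals and shares of cells exact Clopper-Pearson intervals (scipy 1.17.1). Intervals cover counting error only. With 1 library per condition no test was run. Every member was described, and a gene of a list was named by size, past 1.5-fold with at least 50 UMIs over both libraries, or by having the most UMIs of its list. Shares were compared after cells were thinned to 5000 or 1000 UMIs. The intervals of the ratios were tested on simulated data that held counting error only. That simulation had no variation between cells, mice or libraries and did not cover the Rpe65 gate, clustering or doublets. Alternatives covered the Rpe65 gate, cell filters, doublets, normalization, thinning, clustering and cells with fibroblast markers. A gene that met the rule for likeness to the members is not reported here.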

Additional observations from a re-analysis of the deposited data

Results flagged for a closer look

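The log2 ratio of the summed members, Dox over control, is given here for pairs of cell groups whose sums differed in opposite directions. None of these differences was tested, since each condition was 1 library. Against the Cd74-led RPE subcluster, the log2 ratio was 0.60 higher in the Mgp-led, 0.90 higher in the Gm26917-led and 0.87 higher in the Serpina3n-led subcluster. Against RPE cells as a whole, it was 0.32 higher in Myoc-led fibroblast-like cells, 0.37 higher in Cxcl10-led cells and 0.58 higher in Schwann-like cells.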

How the results depend on the processing

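Of 125 values of the main results recomputed under an alternative, 86 stayed close, 37 moved and 2 turned direction, and of 388 values of single genes or cell types the numbers were 225, 135 and 28. The cause was not tested. Values in RPE cells with no minimum of UMIs per gene are among those that stayed close, and that setting could not change them. The summed log2 ratio in RPE cells, -0.27, was 0.066 with a gate of 5 Rpe65 UMIs, -0.40 with a gate of 20, -0.39 inside the RPE-like cluster, -0.29 with no limit on genes or complexity, -0.078 as a mean of the cells' own CPM, -0.11 thinned, -0.26 centred on the median of all genes and -0.13 with the highest doublet scores left out. In alternatives chosen after seeing the data it was -0.055 without the Mgp-led and Myh11-led subclusters, -0.011 in cells low in fibroblast markers and 0.10 with the subclusters weighted alike. The count of members past 1.5-fold lower, 1, was 4 with a gate of 20, 5 inside the RPE-like cluster, and 0 with a gate of 5, with the cells' own CPM, thinned, in cells low in fibroblast markers and weighted.

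Single members turned direction as follows. With a gate of 5, Fos was 0.10, Fosb 0.15, Egr1 0.12, Klf2 0.086, Zfp36 0.019 and Dusp1 0.080. Weighted, Fos was 0.094, Fosb 0.21, Junb 0.038, Egr1 0.19, Klf2 0.050, Zfp36 0.0059 and Dusp1 0.14. In cells low in fibroblast markers Fos was 0.012, Egr1 0.023 and Dusp1 0.12. With the cells' own CPM Fosb was 0.26 and Egr1 0.021, and thinned Fosb was 0.075. Without the Mgp-led and Myh11-led subclusters Egr1 was 0.0067 and Dusp1 0.083, and without high doublet scores Dusp1 was 0.025. Jun was -0.054 with a gate of 20 and -0.019 inside the RPE-like cluster.

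In the Cd74-led subcluster the sum, -0.40, was -0.34 both without high doublet scores and in cells low in fibroblast markers, -0.33 thinned and -0.26 with the cells' own CPM, where 3 members and not 6 were past 1.5-fold lower. In the Serpina3n-led subcluster the sum, 0.47, was 0.54 without high doublet scores, 0.66 in cells low in fibroblast markers and 0.53 thinned. There 5 members and not 3 were higher in cells low in fibroblast markers, thinned and with the cells' own CPM, 0 and not 1 were lower in cells low in fibroblast markers, and Atf3 was 0.062 in those cells and 0.0048 thinned. All subcluster alternatives were chosen after seeing the data.

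In the other types, 2 sums were past 1.5-fold lower, against 1 without cells of at least 5 Rpe65 UMIs, with the cells' own CPM, thinned and without high doublet scores, and 0 without integration. Without integration, groups of the same name held other sets of cells. Of single members there, 10 were lower, against 3 without integration and 6 with the cells' own CPM, and 1 was higher, against 2 thinned and 2 without high doublet scores. The Snhg7os-led sum was 0.051 without cells of at least 5 Rpe65 UMIs, and the NK or T cell-like sum was 0.16 without high doublet scores.

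No paired analysis was possible because each condition was 1 library and the labels give no shared replicate numbers. Counting intervals hold no variation between mice.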

Other observations

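Socs3, Jund and Nr4a1 were the other early response genes whose levels across the 24 groups of cell type and library were most like the members, with Pearson correlations of 0.98, 0.96 and 0.94. Sgk1 and Npas4 were the least alike, with -0.01 and -0.02. These genes were chosen after their values were seen.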
